A study of Mus musculus with 144 samples.

Results

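The clonal architecture of 1 T-cell acute lymphoblastic lymphoma, T-ALL 1, was described from the chromosome copy number of its single nuclei. The members were the 46 wells of this tumor that held 1 nucleus, out of 138 such wells and 144 wells in the whole series. They were chosen by their label alone, and all 46 had a copy number state for each of the 19 autosomes. The tumor came from 1 C57BL/6/Sv129 mouse that was Lck-Cre+ as well as p53 f/f and Mad2 f/f. Both genes were thus floxed on both alleles, and Cre driven by the Lck promoter removes floxed sequence in T-cells. Tumor-prone mice were followed for 3 to 4 months without a drug treatment being named, and were sacrificed once breathing was laboured. T-ALL 2, from a second mouse of that genotype and strain, gave 44 of 46 wells with states. A thymus of 1 mouse of the same strain, Lck-Cre- with Mad2 wt and p53 wt, gave 45 of 46 and served as the diploid reference. The thymus wells carry the same monitoring period of 3 to 4 months, and no label gives the age of that mouse. Nuclei were sorted in G1. Each group was 1 animal, so the cells are not replicates of a genotype, no test between animals was made, and no p-value is given. DNA states carry no cell type markers, so the label T-cell could not be checked, and a state for a whole chromosome does not show the floxed exons.

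Mad2, encoded by Mad2l1, is part of the spindle assembly checkpoint, which holds a dividing cell back until its chromosomes are attached to the spindle. Without the checkpoint, sister chromatids can be pulled apart too early and a daughter cell can receive a chromosome too many or too few. p53, encoded by Trp53, arrests or kills many cells with damaged or unbalanced genomes. A gain that arose before a tumor expanded is carried by nearly all of its cells, whereas a later gain is carried by the descendants of a single cell and is nested within the earlier ones. The same gain can also arise more than once in separate cells, and a gained chromosome can be lost again.

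A state is the whole number of copies that the authors assigned to a chromosome in a nucleus. Autosomes above 2 copies were counted as gained and those below 2 as lost. Intervals beside shares of cells are exact Clopper-Pearson 95% intervals, and where 0 cells were found the share that 3 counts would make is given. Both allow for counting error over cells only. Read depth is unknown, because no read counts were used, so no interval can be given for a call in a single nucleus.

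The cells of T-ALL 1 spanned a wide range of gains, with a gap between nearly diploid cells and the rest. Cells 25, 27 and 41 had 0 gained autosomes, and cell 38 had 1, with Chr12 at 3 copies. These 4 cells stood apart from the rest, and the states cannot tell normal cells of the sampled tissue from tumor cells without gains. None of the 46 cells had exactly 2 gains. From there on, 6 cells had 3 gains, 11 had 4, 7 had 5, 6 had 6 and 6 had 7. Cells 8 and 10 had 8 gains, cells 3, 24 and 32 had 9, and cell 4 had the most, with 12. The median was 5 gains per cell, and the mean was 5.02 ± 2.45 (SD over 46 cells). In T-ALL 2 the median was 8, with a narrower range of 4 to 9, and in the thymus all 45 cells had 0.

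**Figure D1:**
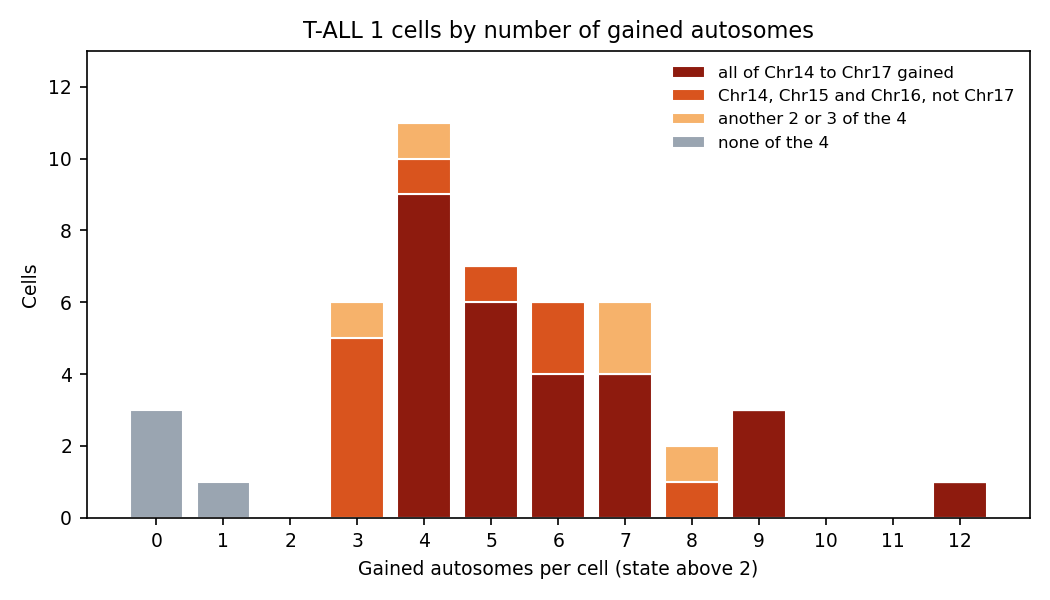
Number of T-ALL 1 cells (y axis) by the number of autosomes with more than 2 copies (x axis), coloured by which of Chr14, Chr15, Chr16 and Chr17 were gained. The 6 cells with 3 gains had gains of these 4 autosomes only, whereas cells with all 4 gained ran from 4 to 12 gains.

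The cells with few and with many gains differed in which chromosomes they carried. All 6 cells with 3 gains (cells 16, 17, 35, 43, 45 and 46) had gains of Chr14 and Chr15, 5 of them with Chr16 and 1 with Chr17 as the remaining gain. Of the 11 cells with 4 gains, 9 had gained Chr14, Chr15, Chr16 and Chr17 and nothing else. Of the 7 cells with 5 gains, 6 carried those 4, and in 5 of the 7 the added gain was Chr1. At 6 gains Chr12 appeared in 4 of 6 cells, and at 7 gains Chr4 appeared in 4 of 6. All 3 cells with 9 gains had both Chr1 and Chr4. The number of gains outside Chr14 to Chr17 was 0 in 18 cells, 1 in 8 cells and 2 or more in 20 cells. At least 1 such gain was thus present in 28 of 46 cells (60.9%, interval 45.4% to 74.9%).

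**Figure D2:**
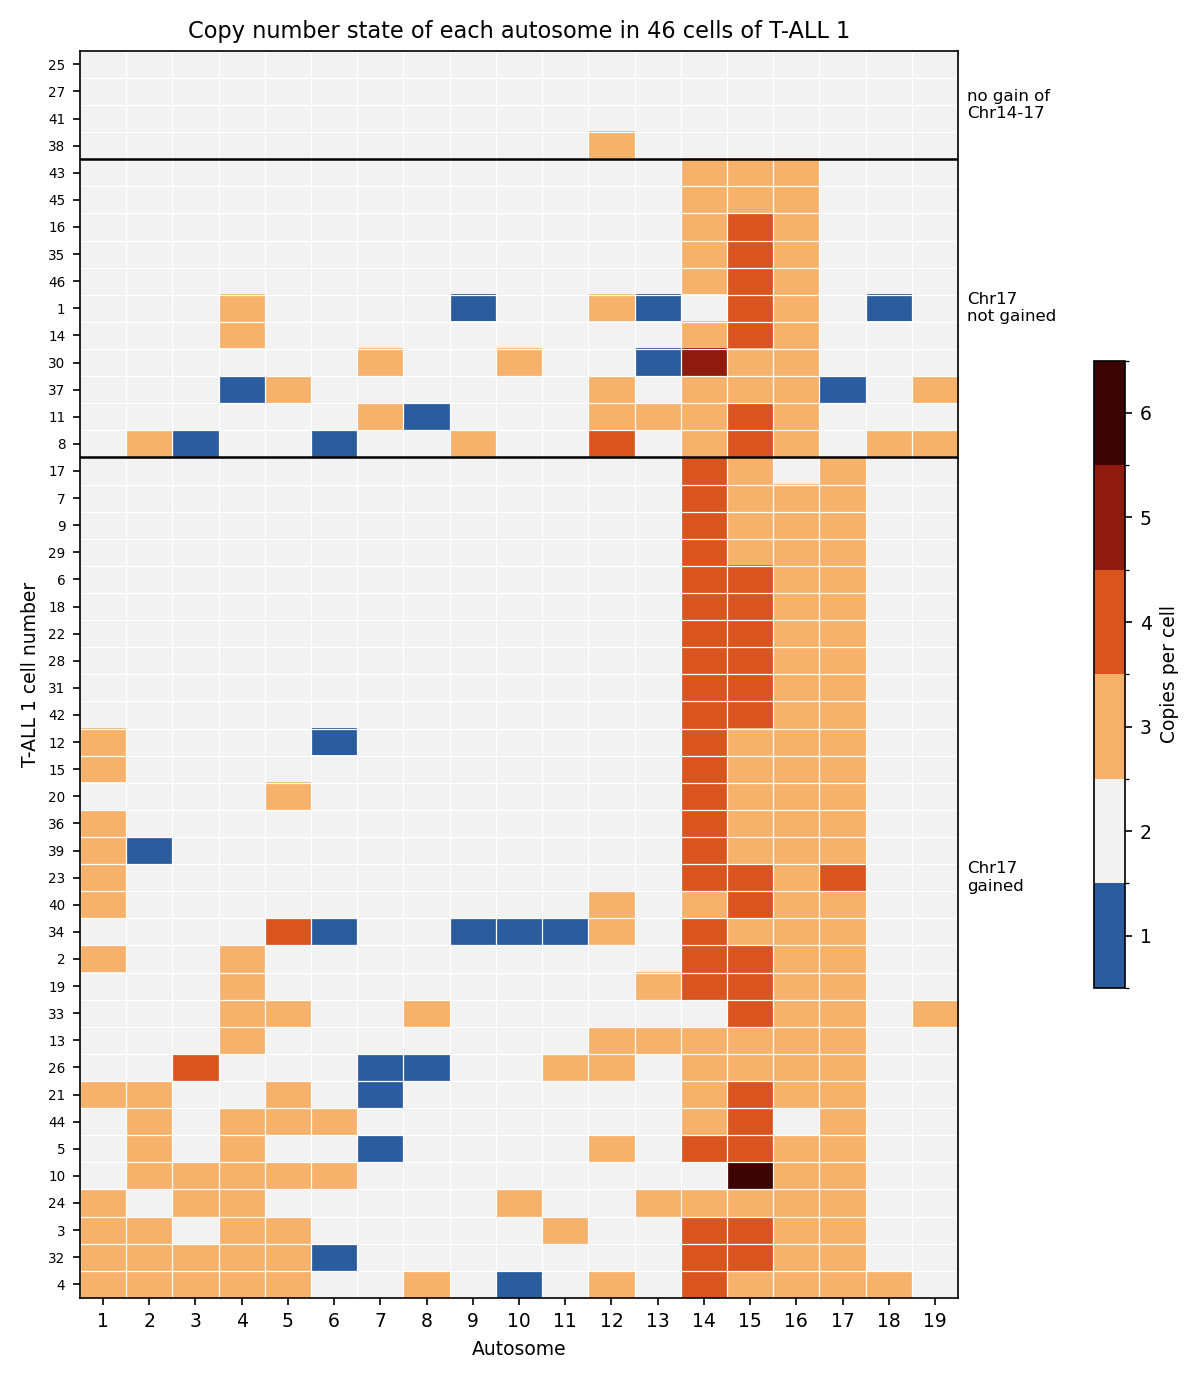
Copies per cell (colour) of each autosome (x axis) in each of the 46 cells of T-ALL 1 (y axis, cell number), grouped by gains of Chr14 to Chr17 and ordered by the number of gains. The 4 cells at the top had 2 copies of Chr14 to Chr17, the next 11 lacked a Chr17 gain, and the lower 31 had it.

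Next, the combinations of Chr14, Chr15, Chr16 and Chr17 were used to ask in which order these gains could have accumulated. Most cells had 1 of 3 combinations. All 4 were gained in 27 cells, and Chr14, Chr15 and Chr16 without Chr17 in 10 cells (21.7%, interval 10.9% to 36.4%). None of the 4 was gained in 4 cells (8.70%, interval 2.42% to 20.8%). These 3 combinations, which make a series from none through Chr14, Chr15 and Chr16 to Chr17 as well, held 41 of 46 cells (89.1%, interval 76.4% to 96.4%). The series was read from these same cells, so that share is no test of it. The 4 cells with none and the 27 with all 4 would fit any order of gains. Only the 10 cells without Chr17 and the 5 cells outside the series bear on the order. Of these 5, cells 10 and 33 had Chr15, Chr16 and Chr17 but not Chr14. Cells 17 and 44 had Chr14, Chr15 and Chr17 but not Chr16, and cell 1 had only Chr15 and Chr16. The states are a single time point, and a gain that never arose cannot be told apart from one that was lost again.

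Intermediate steps of such a series were rare or not seen. Exactly 1 of the 4 was gained in 0 of 46 cells, which allows a share of up to 6.52%, and 2 of the 4 in cell 1 only. The order of Chr14, Chr15 and Chr16 among themselves therefore rests on the 5 exceptional cells, which do not settle it. Chr15 was gained in all 5 of them, Chr16 in 3 and Chr14 in 2. Cells 10, 17, 33 and 44 already had a Chr17 gain, so they are not steps before Chr17 in that series. Only cell 1 lacked it, and that cell had 3 losses. Cells 1, 10, 33 and 44 also had 2 to 5 gains outside Chr14 to Chr17.

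Chr15 was the gain within which the others lay. All 39 cells with a Chr14 gain, all 40 with a Chr16 gain and all 31 with a Chr17 gain also had a Chr15 gain. Chr15 was gained without Chr14 in 3 cells, without Chr16 in 2 and without Chr17 in 11. Chr14 and Chr16 were gained together in 37 cells, Chr14 alone of these in 2 and Chr16 alone in 3. Chr17 was gained without Chr14 in 2 cells and without Chr16 in 2 cells, whereas Chr14 was gained without Chr17 in 10 and Chr16 without Chr17 in 11. Chr15 carries the growth-driving transcription factor gene Myc (mm10 chromosome 15, 61985341 to 61990361) and Il7r, which encodes a receptor chain for the T-cell growth factor interleukin 7. Chr14 carries the T-cell receptor alpha constant region gene Trac and the cell-cycle inhibitor gene Rb1. Chr16 carries Runx1, a transcription factor gene of blood development. Chr17 carries the Notch receptor gene Notch3, the D-type cyclin gene Ccnd3, Ptcra, which encodes a chain of the pre-T-cell receptor, and Mad2l1bp, whose product p31comet releases Mad2 from its targets. Each gene was assigned the state of its whole chromosome, so genes on the same chromosome share 1 value.

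The exact number of copies grouped the cells further, and the number of Chr14 copies followed Chr17. Chr17 was gained in 23 of 23 cells with 4 copies of Chr14 (interval 85.2% to 100%). It was gained in 6 of 15 cells with 3 copies of Chr14 (40%, interval 16.3% to 67.7%). Related cells are not independent, so these intervals do not test the difference. Seen the other way, of the 10 cells with a Chr14 gain and no Chr17 gain, 9 had 3 copies of Chr14 (90%, interval 55.5% to 99.7%), 0 had 4, and cell 30 had 5. Of the 31 cells with a Chr17 gain, 23 had 4 copies of Chr14 (74.2%, interval 55.4% to 88.1%) and 6 had 3. Those 6 (cells 13, 21, 24, 26, 40 and 44) all had gains outside Chr14 to Chr17 as well, against 13 of the 23 cells with 4 copies (56.5%, interval 34.5% to 76.8%). The counts for the 6 cells and the 23 have overlapping intervals.

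Copies of Chr15 did not follow Chr17 in that way. Chr15 had 4 copies in 12 of 23 cells with 4 copies of Chr14 (52.2%, interval 30.6% to 73.2%) and in 9 of 15 cells with 3 copies of Chr14 (60%, interval 32.3% to 83.7%). Chr17 was gained in 14 of 18 cells with 3 copies of Chr15 (77.8%, interval 52.4% to 93.6%) and in 16 of 23 with 4 copies (69.6%, interval 47.1% to 86.8%). In both comparisons the intervals overlapped widely, but related cells are not independent, so this does not test a difference either. Both 3 and 4 copies of Chr15 were present on each side of the Chr17 division, in 3 and 6 of the 9 cells with 3 copies of Chr14 and no Chr17 gain, and in 11 and 12 of the 23 cells with 4 copies of Chr14. Chr14 had more copies than Chr15 in 12 cells, fewer in 12 cells, and an equal gained number in 18 cells. Cell 10 had 6 copies of Chr15 and 2 of Chr14, the highest state of any autosome in the tumor.

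**Figure D3:**
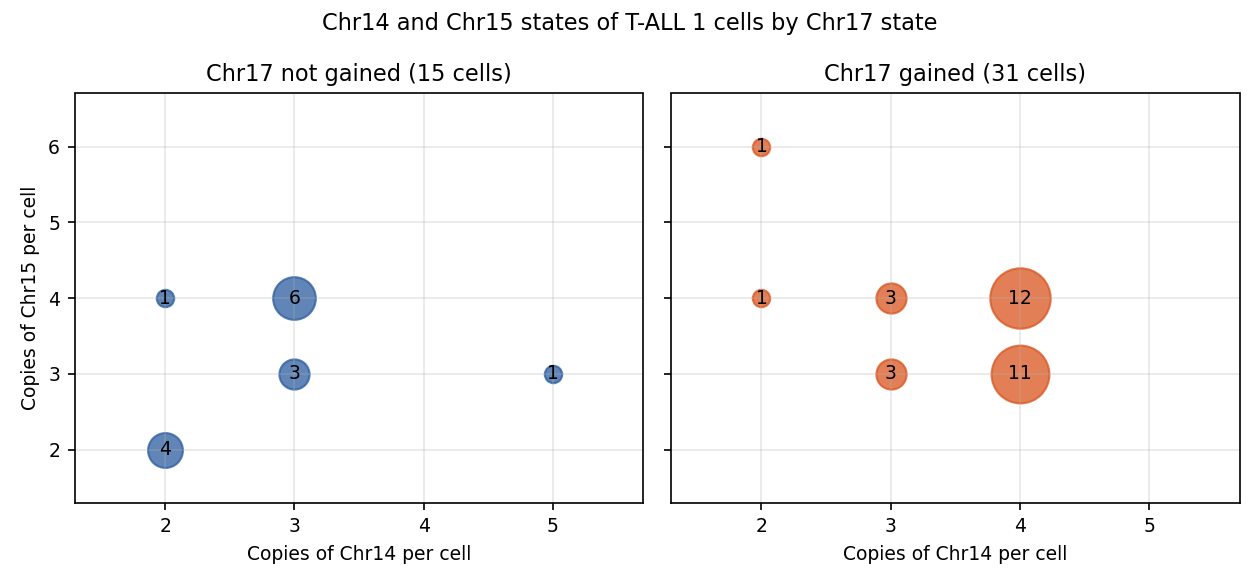
Copies of Chr15 per cell (y axis) against copies of Chr14 (x axis) in T-ALL 1 cells without a Chr17 gain (left, 15 cells) and with one (right, 31 cells). Circle area and number give the cells at each pair of states, and the 23 cells with 4 copies of Chr14 are all on the right.

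As joint states of Chr14, Chr15, Chr16 and Chr17, in that order, 4, 4, 3 and 3 copies were found in 11 cells and 4, 3, 3 and 3 copies in 10 cells. The states 3, 4, 3 and 2 were found in 6 cells, and 2 copies of each in 4 cells. The states 3, 3, 3 and 3 were found in 3 cells, while 3, 3, 3 and 2 and 3, 4, 3 and 3 were found in 2 cells each. The other 8 joint states were found in 1 cell each.

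Outside Chr14 to Chr17, gains were less frequent and were spread over all 15 autosomes. Chr4 was gained in 13 of 46 cells, Chr1 in 12, Chr12 in 11, Chr5 in 10 and Chr2 in 8. Chr3 was gained in 5 cells, Chr13 in 4 and Chr19 in 3, and each of the remaining 7 in 1 or 2. Across these 15 autosomes, the number of cells with a gain in T-ALL 1 and in T-ALL 2 had a Spearman correlation of 0.58, given as a description over autosomes that share libraries. The correlation of T-ALL 1 gains with the end of the last annotated gene, which stands in for length, was 0.44. With the number of protein-coding genes it was 0.06, and with the number of cells with a loss it was -0.68.

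Of the 8 less frequent autosomes gained in 3 or more cells, only Chr1, which carries the apoptosis inhibitor gene Bcl2, was gained solely in cells with all 4 common gains. It was gained in 12 of the 27 cells with all 4 (44.4%, interval 25.5% to 64.7%) and in 0 of the 15 cells without a Chr17 gain, which allows a share of up to 20.0%. Among the 11 cells with a Chr15 but no Chr17 gain it was found in 0, which allows up to 27.3%, and the interval of the share among all 31 cells with Chr17 (38.7%, interval 21.9% to 57.8%) reached below that limit. The 12 cells had 3 copies of Chr1 each. Of these, 9 had 4 copies of Chr14, and Chr15 had 3 copies in 6 and 4 in 6. Chr1 was the gain in 5 of the 8 cells with a single gain outside Chr14 to Chr17 (cells 12, 15, 23, 36 and 39), and in the other 3 it was Chr4 (cell 14), Chr5 (cell 20) and Chr12 (cell 38).

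The other less frequent gains were present on both sides of the Chr17 division, apart from Chr3. Chr4, with the T-ALL oncogene Tal1, the cell-cycle inhibitor gene Cdkn2a and the anaphase activator gene Cdc20, was gained in 11 of 31 cells with a Chr17 gain (35.5%, interval 19.2% to 54.6%). Among the 11 cells with Chr15 but not Chr17 it was gained in 2 (18.2%, interval 2.28% to 51.8%). Chr5, with the cyclin-dependent kinase gene Cdk6 and the Mad2 partner gene Mad1l1, was gained in 9 of the 31 and 1 of the 11. Chr2, with Notch1, the adaptor gene Lmo2 and the checkpoint genes Bub1 and Bub1b, was gained in 7 and 1. Chr12, with the T-lineage factor gene Bcl11b, had the opposite order, with 6 of the 31 (19.4%, interval 7.45% to 37.5%) and 4 of the 11 (36.4%, interval 10.9% to 69.2%). Chr3 was gained in 5 of the 31 and 0 of the 11, Chr13 in 3 and 1, and Chr19 in 1 and 2. All of these intervals overlapped between the sets of cells, which is no test, since related cells are not independent.

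All pairs of gains were then sorted by how their cells overlapped. A pair was nested when every cell with 1 gain also had the other, and exclusive when 0 cells had both. In the remaining pairs all 4 combinations (neither, either alone, both) were seen. The 12 autosomes gained in 3 or more cells gave 66 pairs. Of these, 18 were nested (27.3% of pairs), 5 were exclusive (7.58%) and 43 had all 4 combinations (65.2%), which gains that arose once and were never lost would not give if every call were right. When each combination had to be seen in 2 cells, 23 pairs had all 4, and with 1 exception cell allowed 33 pairs were nested. In T-ALL 2, where 12 autosomes also gave 66 pairs, 28 were nested, 5 were exclusive, 23 had all 4 combinations, and the rest lacked cells with neither gain.

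All nested pairs lay within the common gains. Of the 18 nested pairs, 10 lay within Chr15, 4 within Chr16, 2 within Chr14 and 2 within Chr17. Chr15 was gained in 42 of 46 cells, so a less frequent gain has little room to fall outside it, and without Chr15 8 of 55 pairs were nested. Chr15 was gained in every cell but the 4 nearly diploid ones. Without these 4 cells 20 pairs were nested, 5 exclusive and 38 had all 4 combinations, and the rest lacked cells with neither gain. Every cell left then has a Chr15 gain, so the 11 pairs with Chr15 are nested by construction. With Chr15 left out as well, 9 of 55 pairs were nested. Chr1 lay within all of Chr14, Chr15, Chr16 and Chr17. Chr3 lay within Chr15, Chr16 and Chr17, Chr13 within Chr14, Chr15 and Chr16, and Chr19 within Chr15 and Chr16. Chr14 and Chr16, gained in 39 and 40 cells, also leave little room. The product of the 2 shares gave 2.61 shared cells for Chr19 and Chr16, where 3 were found. It gave 3.39 for Chr13 and Chr14 (4 found) and 4.35 for Chr3 and Chr16 (5 found). The gap was wider for Chr1 and Chr17, with 12 found and a product of 8.09. Chr2, Chr4 and Chr5 lay within Chr15 only. Chr12 was the exception, with 10 of its 11 cells in Chr15, and that rested on cell 38. Without that cell 20 pairs were nested and 41 had all 4 combinations.

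**Figure D4:**
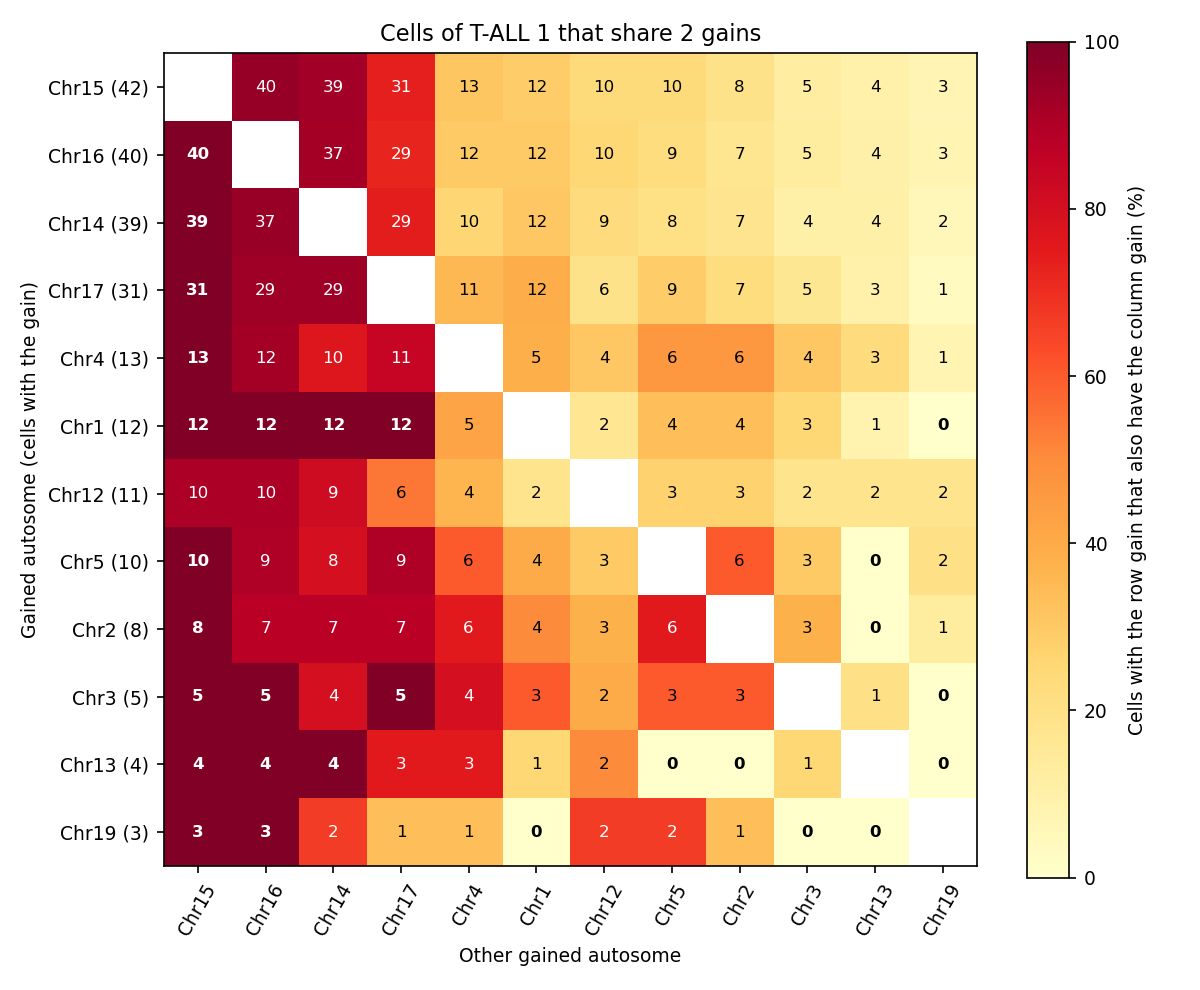
Cells of T-ALL 1 with both the row gain and the column gain (number in each square), coloured by the percentage of the cells with the row gain that also had the column gain. Bold numbers mark 100% or 0%, and the number beside each row name is the cells with that gain. The columns of Chr15 and Chr16 are dark, whereas Chr13 and Chr19 hold all the squares at 0.

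Among the 8 less frequent autosomes, 0 of 28 pairs were nested, 5 were exclusive and 23 had all 4 combinations. The exclusive pairs were Chr19 with Chr1, Chr3 and Chr13, and Chr13 with Chr2 and Chr5. Each involved Chr13 (4 cells) or Chr19 (3 cells). The product of the shares of Chr19 and Chr1, as arithmetic, gave 0.783 shared cells, so that 0 is no departure that these counts could show. No pair with 5 or more gained cells on each side was exclusive.

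More often the less frequent gains shared cells. For 21 of the 28 pairs the number of shared cells was above the product of their shares, and for 7 it was below. Chr2 and Chr5 were gained together in 6 cells, with a product of 1.74. Chr2 and Chr4 shared 6 cells (product 2.26), Chr4 and Chr5 shared 6 (product 2.83), and Chr3 and Chr4 shared 4 (product 1.41). Chr1 and Chr12 were among the 7, with 2 shared cells and a product of 2.87. Cells with many gains add shared cells to every pair, so these numbers are not independent of each other. Chr2, Chr4 and Chr5 were all gained in cells 3, 4, 10, 32 and 44, which had 7 to 12 gains each. Chr1, Chr2, Chr4 and Chr5 were gained together in cells 3, 4 and 32 (6.52%, interval 1.37% to 17.9%), whereas T-ALL 2 had them together in 26 of its 44 (59.1%, interval 43.2% to 73.7%), and there each of the 4 was gained in most cells.

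To find near neighbours, the distance between cells was taken as the sum over the 19 autosomes of the difference in copies, so that a single gain or loss of 1 copy is 1 step. Just over 50% of the cells had a near neighbour. Of 46 cells, 19 had an identical cell and another 6 had a cell at 1 step, or 25 in all (54.3%, interval 39.0% to 69.1%). In T-ALL 2 this was 30 of 44 cells (68.2%, interval 52.4% to 81.4%), with 16 identical and 14 at 1 step, and in the thymus 44 of 45. Without the 4 nearly diploid cells the share in T-ALL 1 was 50%. The mean distance to the nearest cell, with its SD over cells, was 2.11 ± 2.35 steps in T-ALL 1 and 1.55 ± 2.52 steps in T-ALL 2. The intervals of the 2 shares overlapped, but a near neighbour depends on which other cells were sampled, and the intervals do not allow for that. The median distance was 1 step in each tumor. In T-ALL 2 a single cell at 15 steps adds to the mean and the SD. With 1 animal each, these values do not show whether such tumors differ.

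Joining cells at distances of 1 or less gave 3 groups and 21 cells in no group. The first group held 15 cells (32.6%, interval 19.5% to 48.0%) and 7 karyotypes. All 15 had 4 copies of Chr14 and a Chr17 gain, 14 had a Chr16 gain, 4 had a Chr1 gain, and Chr15 had 3 copies in 9 and 4 in 6. The second held 6 cells (14, 16, 35, 43, 45 and 46), with 3 copies of Chr14, a Chr16 gain and no Chr17 gain. The third held the 4 cells without gains of Chr14 to Chr17. The smallest distance was 2 steps between the first and second groups. The nearly diploid group lay 3 steps from the second and 4 from the first at the smallest, so that the group with 3 copies of Chr14 was the nearer to it on this scale. Joined at 2 steps, or with states collapsed to loss, 2 and gain, the largest group held 24 cells. In T-ALL 2 the largest group at 1 step held 28 of 44 cells (63.6%, interval 47.8% to 77.6%). The size of such a group depends on which other cells were sampled, and the intervals do not allow for that. With 1 animal each, the 2 sizes do not show whether such tumors differ.

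The karyotypes found in more than 1 cell marked the same groups. With 2 copies of all unnamed autosomes, 6 cells had 4 copies of Chr14 and Chr15 and 3 of Chr16 and Chr17. Another 3 cells differed from them only in having 3 copies of Chr15 instead of 4. Another 2 cells (15 and 36) had the latter states and 3 copies of Chr1. In the second group 3 cells had 3, 4 and 3 copies of Chr14, Chr15 and Chr16, and 2 cells had 3 of each. The sixth shared karyotype was the diploid one, in 3 cells. The karyotype with 4, 3, 3 and 3 copies was the most connected, with 10 cells at 1 step, against 3 cells for the most common one. Of the 9 links of 1 step between karyotypes, 2 were a change of Chr15 between 3 and 4 copies. The other 7 were 1 each of Chr1, Chr2, Chr4, Chr5, Chr6, Chr12 and Chr16. A link gives the chromosome in which neighbours differ and not the direction of a change.

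**Figure D5:**
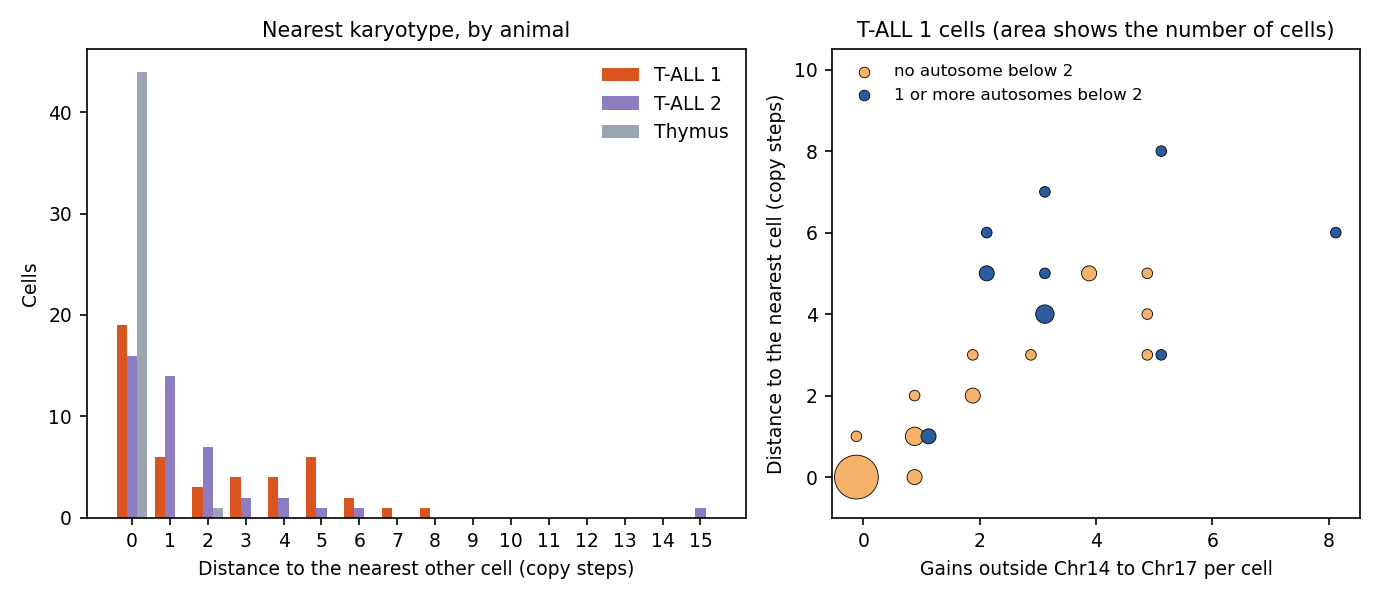
Left, number of cells (y axis) by distance to the nearest other cell of the same animal, in copy steps (x axis), for T-ALL 1, T-ALL 2 and thymus. Right, that distance (y axis) against gains outside Chr14 to Chr17 (x axis) for the 46 cells of T-ALL 1, shifted sideways by whether the cell had a loss. No cell with 2 or more such gains had a neighbour within 1 step.

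The other 21 cells stood apart, with a nearest cell at 2 to 8 steps. They had a median of 3 gains outside Chr14 to Chr17 (range 1 to 8), 16 of them had a Chr17 gain, and 11 had a loss. The nearest cell was at 4 or more steps for 14 cells. It was at 8 steps for cell 8, at 7 for cell 26 and at 6 for cells 4 and 34. It was at 5 steps for cells 1, 10, 30, 33, 37 and 44, and at 4 for cells 5, 11, 21 and 24. Of these 14, 10 had a loss (71.4%, interval 41.9% to 91.6%), the exceptions being cells 10, 24, 33 and 44. Among all 46 cells 13 had a loss (28.3%), and a loss itself adds a step unless another cell shares it. The nearest cell to cell 10 was cell 44, and both had gains of Chr2, Chr4, Chr5 and Chr6. Cell 3 lay at 3 steps from cell 32, with which it shared Chr1, Chr2, Chr4 and Chr5.

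Isolation followed the number of gains outside Chr14 to Chr17. All 18 cells without such a gain had a neighbour within 1 step, as had 7 of 8 cells with 1 such gain, and 0 of 20 cells with 2 or more, which allows up to 15.0%. A cell with more changes is farther from others in part by construction, since each change adds a step unless another cell shares it. With only Chr14 to Chr17 counted, 95.7% of cells had a neighbour within 1 step, and with those 4 left out 69.6% had.

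Losses were rarer than gains and fell in cells with added gains. The 21 losses, each to a state of 1, were found in 13 cells and on 12 autosomes, and 20 of the 21 were outside Chr14 to Chr17. That share is set in part by the definition. A copy lost from a gained Chr14, Chr15, Chr16 or Chr17 that leaves 2 or more copies was not counted as a loss. The autosomes outside these are also 15 of the 19. The thymus reference was not wholly diploid, since 1 of its 45 cells had 2 losses (Chr16 and Chr18) and no gain. Chr6, which carries Mad2l1 itself and the T-cell receptor beta gene Trbc1, was lost in 4 cells (8, 12, 32 and 34; 8.70%, interval 2.42% to 20.8%) and gained in 2. Chr7, which carries the checkpoint gene Bub3, was lost in 3 cells (5, 21 and 26) and gained in 2. Each of the other 10 was lost in 1 or 2 cells. Chr11, which carries Trp53 and the lymphoid factor gene Ikzf1, was lost in 1 cell (34) and gained in 2. Chr9, with the checkpoint kinase gene Ttk, was lost in 2 cells and gained in 1.

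All 13 cells with a loss also had a gain outside Chr14 to Chr17, that is 13 of the 28 cells with such a gain (46.4%, interval 27.5% to 66.1%). Among the 18 cells without such a gain 0 had a loss, which allows up to 16.7%. Losses were found in 8 of 31 cells with a Chr17 gain (25.8%, interval 11.9% to 44.6%) and in 5 of the 11 with Chr15 but not Chr17 (45.5%, interval 16.7% to 76.6%). The intervals overlapped, but over related cells they do not test a difference. Cell 34 had 4 losses (Chr6, Chr9, Chr10 and Chr11) and cell 1 had 3, and together with cells 8, 26 and 37, which had 2 each, these 5 cells held 13 of the 21 losses. Cells with a loss lay 4.54 ± 2.07 steps from their nearest cell (SD over 13 cells), and cells without one 1.15 ± 1.68 (SD over 33 cells). A loss adds to this distance by construction. Cells with a loss also had more gains outside Chr14 to Chr17, with a mean of 3.15 against 1.15. Without the cells with a loss, 69.7% of the remaining 33 had a neighbour within 1 step and 22 pairs of gains had all 4 combinations.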

How the data were processed

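Copy number was measured by whole-genome sequencing of single nuclei. The authors deposited, per animal, a table of wells by chromosomes that gives a copy number state (a whole number, neither a read count nor a normalized value). AneuFinder was used for the single-cell data per the study's methods, and its version and settings are not stated there. Bowtie2 2.1.0, SAMtools 0.1.18, bcl2fastq 1.8.2 and mm10 appear in the submitters' processing notes. A state is scaled to its own library, so a doubling of the whole genome would not show, and changes of part of a chromosome are rounded or lost.

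Wells were matched to the labels by name, with 0 unmatched, and wells of dashes, 10 nuclei or 0 nuclei were left out. No test was made, since cells of 1 tumor are not replicates. Named were Chr14 to Chr17, autosomes gained or lost in 3 or more cells, pairs with 5 or more gained cells on each side that were nested or exclusive, karyotypes in 2 or more cells, cells with a nearest cell at 4 or more steps, and cells with the fewest or most gains. Other pairs, Chr9 and Chr11 were chosen after their values were seen. Genes came from 4 lists (T-ALL oncogenes, tumour suppressors, checkpoint genes, T-cell receptor loci), and 26 of 26 were placed by symbol in the RefSeq annotation of GRCm38.p6. A further listed gene is not reported here. Members and lists were chosen with earlier results of these data known. Alternatives changed the definition of a gain, the cells, the pair rule and the distance. The code was tested on simulated data and ran in Python 3.11.15 with SciPy 1.17.1, NumPy 2.4.6, Matplotlib 3.10.9 and pandas 2.3.3.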

Additional observations from a re-analysis of the deposited data

Results flagged for a closer look

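The Y chromosome, which no comparison above used, had a state above 0 in 46 of 46 cells of T-ALL 1, in 0 of 45 thymus cells and in 0 of 44 cells of T-ALL 2. For X, 45 of the 46 T-ALL 1 cells and 43 of the 44 T-ALL 2 cells had 1 copy, and all 45 thymus cells had 2. The labels do not state the sex of the animals.

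The T-ALL 1 well with 10 nuclei had 6 autosomes above 2 copies (Chr4, Chr11, Chr14, Chr15, Chr16 and Chr17), against 0 in the thymus well with 10 nuclei. It lay 3 steps from the most common karyotype of the single cells, and 3 steps was also its distance to the nearest of them, at which 9 cells lay. Its Chr14, Chr15 and Chr17 were at 4 copies, Chr4, Chr11 and Chr16 at 3, and the other 13 at 2.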

How the results depend on the processing

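No paired analysis was possible because the results come from no test and cell numbers only name wells. Of 83 alternative values, 60 stayed within 1.5 times a count or within the interval or SD of the reported value, and 23 moved beyond it. The 60 is no measure of robustness, since some values had little or no room to move. A second type of interval left its share unchanged, and leaving out 1 of 46 cells changes little. The mean nearest distance of 2.11 steps was allowed its SD over cells of 2.35. Reversal was not among the outcomes scored. Counting a gain only above the most common state brought the median from 5 to 1 gain per cell. The 43 pairs with all 4 combinations became 22 without the cells with a loss, 21 in odd-numbered cells, 23 when a combination needed 2 cells and 73 over autosomes gained in 2 or more cells. The 18 nested pairs became 33 with 1 exception cell allowed and 43 over autosomes gained in 2 or more cells. The 5 exclusive pairs became 0 in even-numbered cells, 10 with 1 exception cell, 37 over autosomes gained in 2 or more cells and 0 over those gained in 5 or more, and lay between 2 and 7 with each cell left out in turn. They fell to 2 without cell 8, 33 or 37, the 3 cells with a Chr19 gain, since Chr19 then drops out of the pairs. The 5 combinations of Chr14 to Chr17 seen in 2 or more cells became 3 in odd-numbered and 2 in even-numbered cells, with 23 cells each. The largest group of 15 cells became 7 and 5 in those sets, 24 with states collapsed to loss, 2 and gain, and 24 when joined at 2 steps. The share of cells with a neighbour within 1 step went from 54.3% to 69.7% without the cells with a loss, 69.6% without Chr14 to Chr17 and 95.7% over those 4 only. Leaving out the 6 cells with 8 or more gains, chosen after seeing the data, gave 3 exclusive pairs and 27 pairs with all 4 combinations. The cause of the other changes was not tested. Read depth is unknown, and each tumor is 1 animal.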
